A study of Mus musculus with 4 samples.

Results

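Amino acid transporter genes were compared on Agilent arrays of a single colour between 4 populations of mouse cells, as the families Slc1a, Slc3a, Slc6a, Slc7a, Slc36a, Slc38a and Slc43a. The genes were found by name: any gene whose name begins with one of these 7 family stems followed by a digit was taken, and each was represented by its brightest probe, the one with the highest mean over the 4 arrays. This gave 62 of 35527 gene names on the array, measured by 80 probes. The pattern also caught Slc7a6os, a gene on the strand opposite Slc7a6 that codes for no transporter, so 61 names were transporters. Of the 62, 55 stood well above background somewhere, 42 of them on all 4 arrays, and 7 were not well above background on any: Slc6a11, Slc6a14, Slc6a19, Slc7a10, Slc7a12, Slc7a13 and Slc7a14.

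Amino acid carriers differ in the ions they are coupled to and in the amino acids they accept. Slc1 proteins take up glutamate or exchange small neutral amino acids with sodium, and Slc38 proteins take up glutamine and alanine with sodium. Some Slc36 proteins move small amino acids with protons, and the leucine carriers of the Slc43 family need no ion. Most Slc7 proteins are light chains that reach the cell surface only when bound to an Slc3 heavy chain, while the cationic Slc7 carriers work alone, and Slc6 proteins carry glycine, proline, taurine, creatine or neurotransmitters with sodium and chloride. Mouse embryonic stem cells are known to depend on threonine in the medium.

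The cells were iPS-OSH and iPS-J, both induced pluripotent stem cell lines of C57BL/6 background, ESC, embryonic stem cells of 129SV background, and MEF, embryonic fibroblasts of C57BL/6 background. The labels name no reprogramming factor or transgene and no passage. MEF grew with 10% serum and the other lines with 15% serum, 0.1 mM 2-mercaptoethanol and the cytokine LIF, and both media held 0.1 mM non-essential amino acids and 2 mM L-glutamine. With 1 array a population, differences could not be checked against replicates or tested. Medium and cell type changed together between MEF and the other arrays and cannot be told apart, and the same holds for the 129SV background and ESC. All arrays shared 1 slide. They were scanned in 3 sessions, with the pair of iPS arrays together and MEF and ESC each apart, so only the iPS-OSH against iPS-J comparison lay within a session.

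Signals below are background-subtracted intensities in arbitrary units. Differences are log2 ratios after each array was divided by the 75th percentile of its own signals (1564, 1241, 1307 and 1765 on iPS-OSH, iPS-J, ESC and MEF), so a raw signal ratio and a scaled difference are not the same number. A difference of at least 2-fold was counted as higher or lower, and where a probe was not well above background on 1 of the 2 arrays the difference is a bound, written as "at least". The median spread between repeat spots, over probes printed many times and well above background, gave a typical difference an SD of 0.12 to 0.19 (log2). This covers spot noise and not the spread between cultures. Dim probes can spread more, as Slc1a1 did with a log2 SD of 0.47 on iPS-J and 0.60 on MEF. As a second mark of a dim signal, the 95th percentile of the ERCC control spots was 120 for iPS-OSH, 97.6 for iPS-J, 255 for ESC and 267 for MEF. Of the 62 genes, 31 exceeded it on all 4 arrays and 19 on none. The level of these control spots was higher on ESC and MEF than on both iPS arrays, and its part in differences of dim genes was not tested.

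Cell type markers separated MEF from the other arrays. The summed scaled signal of 8 pluripotency markers was 266 for iPS-OSH, 391 for iPS-J, 482 for ESC and 0.686 for MEF, where 6 of 8 were well above background. For 8 fibroblast markers it was 297, 54.8, 44.2 and 982, so iPS-OSH gave more of this signal than the other pluripotent arrays. For 8 markers of primitive and visceral endoderm it was 7.33, 139, 19.6 and 2.04, highest on iPS-J. The sums for 8 macrophage markers were 21.1, 14.1, 8.58 and 34.8, on iPS-OSH and MEF mostly Itgam, at signals of 21101 and 40148.5. For 7 measured of 8 neural markers they were 7.27, 4.37, 6.58 and 17.3 (on MEF mostly Tubb3 and Nes, at signals of 15587 and 14482). For 8 markers of gut and kidney epithelium they were 1.01, 0.872, 1.63 and 0.638. In bulk RNA, fewer cells of a type and less RNA per cell cannot be told apart, and the part of other cell types in the transporter differences was not tested.

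The 60-base probes that carry the main contrasts are shown by their first 30 bases, 5′ to 3′ as printed on the array, in lower case. They sit at chrX:98274644-98274703 (Slc7a3, minus strand), chr14:54989166-54989225 (Slc7a7, minus), chrX:7857241-7857300 (Slc38a5, plus), chr10:78277447-78277506 (Slc1a6, plus) and chr3:50169700-50169759 (Slc7a11, minus), all on mm9. No exon or UTR annotation of mm9 was used here.
Slc7a3: ggatatgaaataatgctctgtatttcttgt
Slc7a7: ctctttcctttacaagggccaacaatgctc
Slc38a5: cctagatgaagctgttagggttaccctggc
Slc1a6: tgaacatacatgttctgtgtgggttctctg
Slc7a11: agtaatgtatcaggagctttatgtaaatgt

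Slc6a9 has 2 probes, shown because they overlap and gave like values. They lie at chr4:117541842-117541901 and chr4:117541851-117541910 on the plus strand of mm9, shifted by 9 bases, and share 51 of 60, with the shared part of the stretch shown in capitals.
Slc6a9 brightest: gcccagtgtGTGCAGAACTAGGGTTTTAAA
Slc6a9 other: GTGCAGAACTAGGGTTTTAAAgtccgtagg

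Against MEF and with the main settings, transporters were lower more often than higher on both iPS arrays, at shares close to those of all genes. On iPS-OSH, 7 of 55 were at least 2-fold higher and 16 lower, where 13.7% of all genes compared were higher and 25.1% lower. On iPS-J, 7 of 54 were higher and 12 lower, against 16.2% and 26.2% of all genes. On ESC, 10 of 55 were higher and 11 lower, against 22.6% and 16.7%. The median difference of the transporters was -0.42, -0.17 and 0.02 on iPS-OSH, iPS-J and ESC, and that of all genes was -0.33, -0.29 and 0.11. The balance moved with the processing. With the deposited values left unscaled, 6 were higher and 21 lower on iPS-J and 9 and 16 on ESC. With the percentile of commonly detected probes, 12 were higher and 7 lower on ESC. Normexp background correction turned the balance on iPS-J, to 7 higher and 5 lower. Of all genes on iPS-J, 4343 were then higher and 4204 lower. The 3 comparisons share the MEF array and are not independent.

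**Figure D1:**
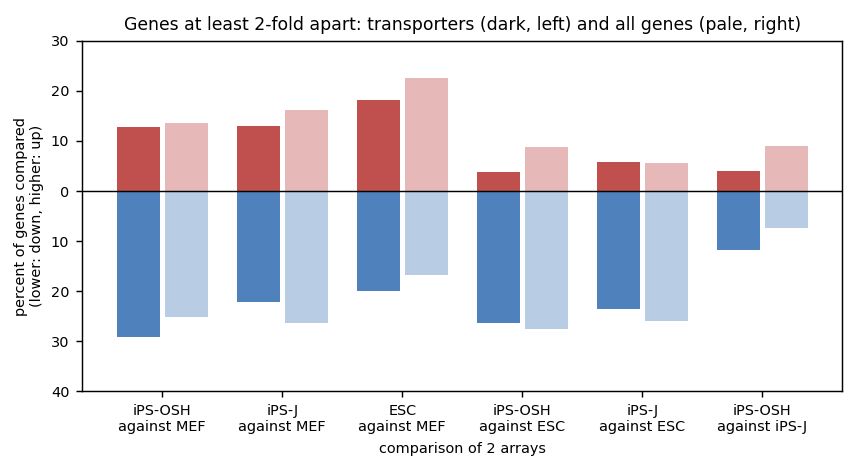
Percent of transporter genes (dark bars, left) and of all genes (pale bars, right) at least 2-fold higher (up) or lower (down) in each comparison of 2 arrays. The largest dark bar downward is 29.1% lower in iPS-OSH than MEF (all genes 25.1%). The largest upward is 18.2% higher in ESC than MEF (all genes 22.6%).

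**Figure D2:**
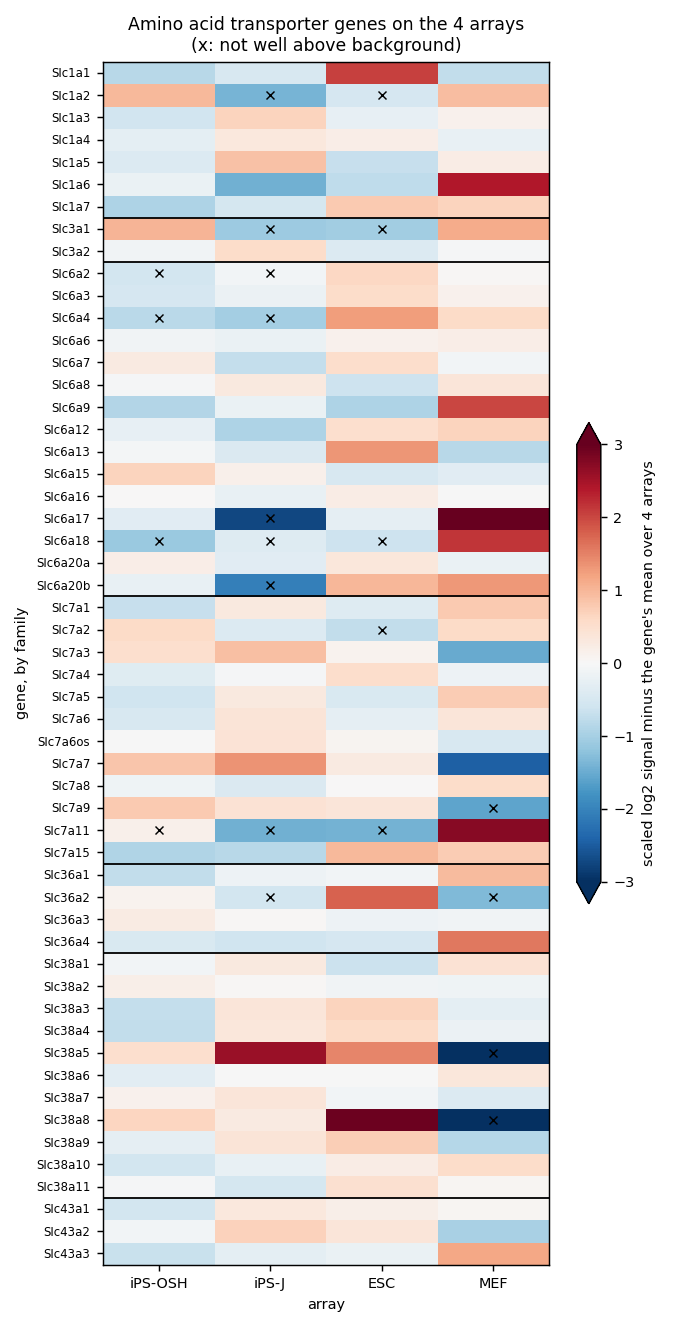
Scaled log2 signal of 54 transporter genes detected on at least 1 array, minus its own mean over the 4 arrays (colour, capped at 3), by family and array, with crosses where the probe was not well above background. Slc38a5 and Slc38a8 stand out as low on MEF, and Slc1a6, Slc6a9, Slc6a17 and Slc7a11 as high there.

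Of the heavy chains, the bright one differed by less than 2-fold between any 2 arrays. Slc3a2, the CD98 heavy chain that brings most Slc7 light chains to the membrane, gave 48719.7 in iPS-OSH, 61008 in iPS-J, 33217 in ESC and 57666 in MEF. Its scaled signal spanned 1.93-fold over the 4 arrays, with differences from MEF of -0.07, 0.59 and -0.36 on iPS-OSH, iPS-J and ESC. It was highest on iPS-J and lowest on ESC. Slc3a1, the heavy chain of the cystine carrier of kidney and gut, was faint, at 48.9 on iPS-OSH and 59.2 on MEF, and was not well above background on iPS-J and ESC (9.09 and 9.93).

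The light chains that share Slc3a2 went apart. Slc7a7, which exchanges basic for neutral amino acids (y+LAT1), gave 34776 in iPS-OSH, 39396 in iPS-J, 19656 in ESC and 4054 in MEF. It was bright on every pluripotent array and low on MEF, by 9.68, 13.8 and 6.54-fold on iPS-OSH, iPS-J and ESC (log2 3.27, 3.79 and 2.71). Slc7a6, y+LAT2 with the same kind of exchange, gave 1201 in iPS-OSH, 1756 in iPS-J, 1178 in ESC and 2447 in MEF, and its differences of -0.85, 0.03 and -0.62 stayed under 2-fold. Slc7a7 thus passed 2-fold on all 3 arrays and Slc7a6 on none.

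Slc7a5, the large neutral carrier LAT1 that supplies leucine, gave 4618 in iPS-OSH, 6747 in iPS-J, 4244 in ESC and 13271 in MEF. MEF was highest, and the scaled signal was 2.55-fold lower on iPS-OSH and 2.32-fold lower on ESC but 1.38-fold lower on iPS-J. The log2 differences were -1.35, -0.47 and -1.21 on iPS-OSH, iPS-J and ESC. A second Slc7a5 probe, nearer the transcript's start, read 551, 1970.5, 1473 and 1236 in the same order, so it was lower on iPS-OSH (-0.99) but higher on iPS-J (1.18) and ESC (0.69). For Slc7a5 the direction on iPS-J and ESC therefore depended on the probe.

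Slc7a8, the related carrier LAT2, was printed 10 times on each array. The spots used gave medians of 143 (range 123 to 163, 9 spots) on iPS-OSH, 90.2 (85.0 to 108, 8 spots) on iPS-J, 130 (122 to 145, 7 spots) on ESC and 256 (236 to 275, 8 spots) on MEF. Among the spots used, MEF signals before scaling did not overlap with those of any other array. Outlier spots left out included 174 and 166 on MEF, 170 on ESC and 409 on iPS-OSH. With these the MEF range overlapped with those of ESC and iPS-OSH, but not with that of iPS-J. The scaled differences of -0.68, -0.96 and -0.52 stayed under 2-fold.

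Slc7a11 and Slc7a9 are the light chains that carry cystine. Slc7a11, xCT, which takes up cystine in exchange for glutamate, was well above background on MEF alone, at 224. On iPS-OSH, iPS-J and ESC it read 33.1, 8.70 and 9.29, so it was at least 5.98, 5.54 and 5.13-fold lower than on MEF. The MEF signal was itself below the ERCC control percentile of 267, so this is a contrast between a dim signal and an undetected one. With normexp background correction the bounds were -1.32, -0.92 and -1.07 on iPS-OSH, iPS-J and ESC (log2). Slc7a9, the light chain partner of Slc3a1, was the reverse, at 168, 104 and 104 on iPS-OSH, iPS-J and ESC and not well above background on MEF (36.9). It was at least 5.12, 4.0 and 3.81-fold higher, and where detection was set at the ERCC control percentile the bounds on both iPS arrays fell to 0 and ESC gave no value. With normexp they were 1.08, 1.11 and 0.97 on the log2 scale.

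Among the cationic carriers, Slc7a3 and Slc7a1 went in opposite directions. Slc7a3, CAT3, gave 28640.2 in iPS-OSH, 29743 in iPS-J, 18142 in ESC and 8008 in MEF. It was higher than MEF by 4.04, 5.28 and 3.06-fold on iPS-OSH, iPS-J and ESC (log2 2.01, 2.40 and 1.61). Slc7a1, CAT1, the arginine and lysine carrier of most cells, gave 11961 in iPS-OSH, 19035 in iPS-J, 12456 in ESC and 37798 in MEF. MEF was highest for Slc7a1, which was 2.80-fold lower on iPS-OSH, 2.25-fold lower on ESC and 1.40-fold lower, under the threshold, on iPS-J. The log2 differences were -1.49, -0.48 and -1.17 on iPS-OSH, iPS-J and ESC. With the percentile of commonly detected probes the ESC value was -0.92.

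**Figure D3:**
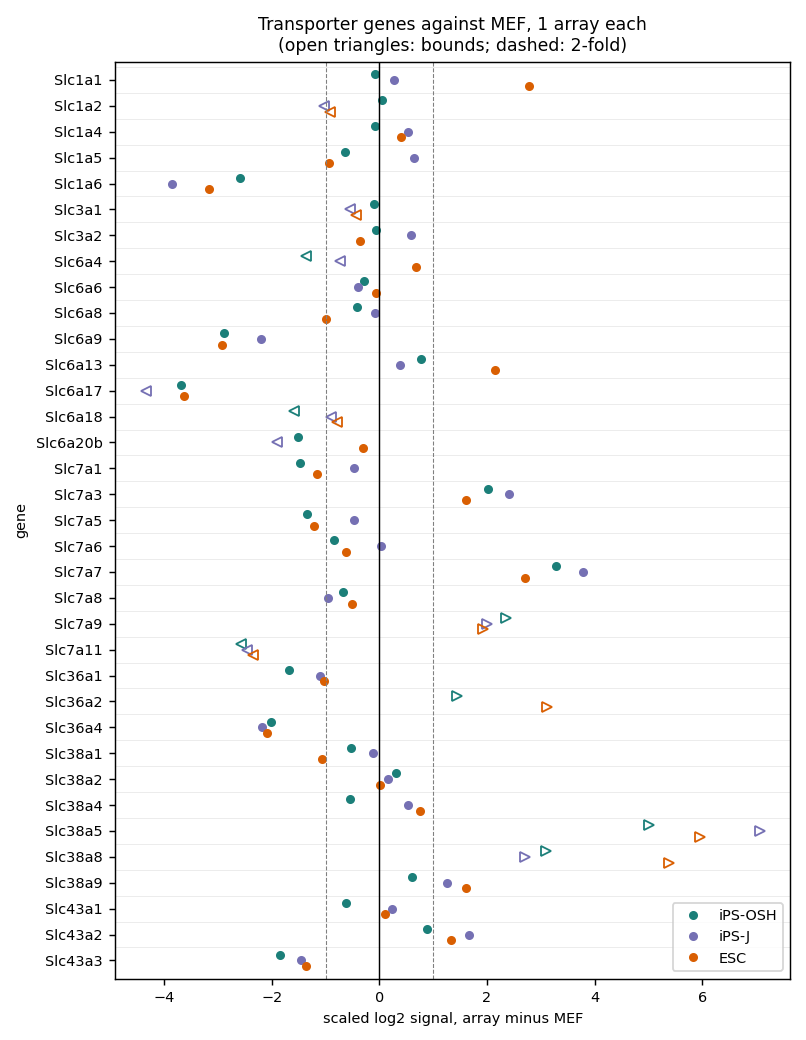
Scaled log2 signal of 35 transporter genes on iPS-OSH, iPS-J and ESC minus MEF, 1 array each, with open triangles for bounds (they point to where the value may lie) and dashed lines at 2-fold. Slc7a3, Slc7a7, Slc7a9, Slc38a5 and Slc38a8 lie right of the upper line on all 3 arrays, and Slc1a6, Slc6a9, Slc6a17, Slc7a11, Slc36a1, Slc36a4 and Slc43a3 left of the lower line. These are 9.26% and 13.0% of the 54 genes of the families compared on all 3 arrays. Of all genes so compared, 8.93% were higher on all 3 and 9.04% lower.

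In the sodium-coupled Slc38 family, Slc38a5 and Slc38a8 were not well above background on MEF and were higher elsewhere, by bounds that moved with the detection rule. Slc38a5, SNAT5, which moves glutamine with sodium against protons, gave 578 on iPS-OSH, 1921 on iPS-J and 937 on ESC, and was not well above background on MEF (19.3). It was at least 32.1, 134 and 62.2-fold higher than on MEF. With detection at the ERCC control percentile these bounds were 1.29, 3.35 and 2.24 on the log2 scale, in place of 5.0, 7.07 and 5.96, and with normexp 2.93, 4.93 and 3.92. iPS-J exceeded iPS-OSH by 4.18-fold and ESC by 2.16-fold. iPS-J was also the array with the highest signal of endoderm markers, whose part in this was not tested.

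Slc38a8, SNAT8, known from retina and neurons, gave 153, 93.2 and 626 on iPS-OSH, iPS-J and ESC and was not well above background on MEF (7.54). ESC stood above both iPS arrays, by 4.88-fold over iPS-OSH and 6.38-fold over iPS-J, and against MEF it was at least 8.51, 6.51 and 41.5-fold higher on iPS-OSH, iPS-J and ESC. With detection at the ERCC control percentile the bound on iPS-OSH fell to 0, iPS-J gave no value and that on ESC was 1.66 on the log2 scale in place of 5.38. With normexp the 3 were 1.43, 1.17 and 3.02.

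The brighter Slc38 carriers differed less. Slc38a2, SNAT2, an alanine carrier induced when amino acids are short, gave 50214 in iPS-OSH, 36144 in iPS-J, 34447 in ESC and 46009 in MEF, a scaled span of 1.23-fold. Slc38a1, SNAT1, a glutamine carrier, gave 21644 in iPS-OSH, 22594 in iPS-J, 12358 in ESC and 35069.9 in MEF, lower than MEF by 2.10-fold on ESC (log2 -1.07, and -0.35 as the median over its 3 probes) and within 2-fold on both iPS arrays (-0.52 and -0.13). Slc38a4, SNAT4, an imprinted gene of placenta and liver, gave 5388 in iPS-OSH, 8969 in iPS-J, 11102 in ESC and 8884 in MEF, so iPS-OSH was 2.46-fold below ESC and 2.10-fold below iPS-J. None of the 3 Slc38a4 differences from MEF reached 2-fold.

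Slc38a9, a lysosomal carrier that senses arginine for mTORC1, gave 1020.5 in iPS-OSH, 1277 in iPS-J, 1715 in ESC and 759.5 in MEF. Its differences from MEF were 0.60, 1.26 and 1.61 on iPS-OSH, iPS-J and ESC, with ESC highest, and 0.75 on iPS-J with unscaled deposited values. Both other probes of Slc38a9 gave the same order against MEF, at 0.77, 1.01 and 1.69 and at 0.29, 1.24 and 1.66.

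In the Slc1 family, Slc1a6 and Slc1a1 showed the widest contrasts. Slc1a6, EAAT4, the glutamate carrier of Purkinje cells, gave 1707 in iPS-OSH, 568 in iPS-J, 967 in ESC and 11679 in MEF. MEF was highest by 6.06, 14.5 and 8.94-fold over iPS-OSH, iPS-J and ESC (log2 -2.60, -3.86 and -3.16), and iPS-OSH was 2.39-fold above iPS-J. iPS-OSH was also the pluripotent array with the most fibroblast marker signal, whose part in this was not tested.

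Slc1a1, EAAC1, which takes up glutamate, aspartate and cysteine, was printed 10 times on each array. Its spots had medians of 66.6 on iPS-OSH (51.0 to 85.7, 10 spots), 63.4 on iPS-J (42.8 to 128, 9 spots), 404 on ESC (362 to 430, 9 spots) and 92.7 on MEF (40.1 to 114, 10 spots). ESC spots lay above every spot of the other arrays, and ESC exceeded MEF by 6.89-fold, iPS-OSH by 7.33-fold and iPS-J by 5.75-fold. The other 3 arrays were below their ERCC control percentiles for Slc1a1. With detection at that percentile the bound for ESC against MEF was 1.01 on the log2 scale in place of 2.79, and the bounds for iPS-OSH and iPS-J against ESC were -2.0 and -1.96 in place of -2.87 and -2.52. With normexp the 3 differences were 2.12, -2.08 and -1.69. The spread was larger where the gene was dim, with a log2 SD of 0.60 on MEF and 0.08 on ESC. The 129SV background, the scan session and the ESC population cannot be told apart in this contrast.

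**Figure D4:**
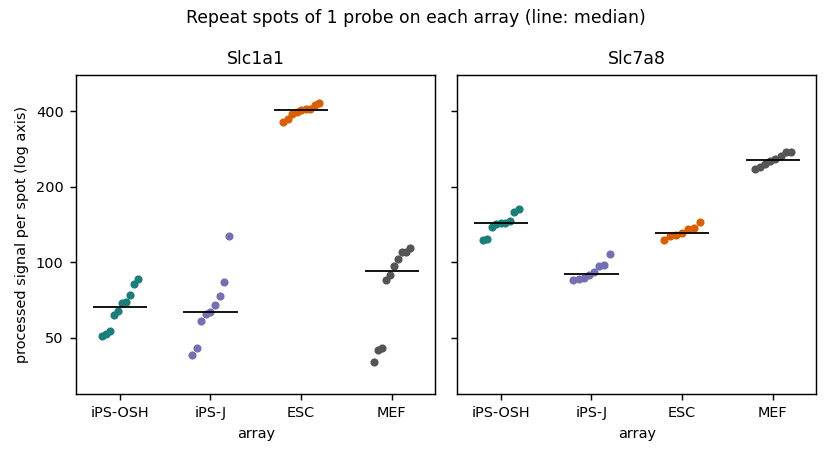
Processed signal (log axis) of each repeat spot used for the Slc1a1 and Slc7a8 probes on the 4 arrays, with the median as a line. For Slc1a1 the ESC spots, from 362 to 430, lie above all others, and for Slc7a8 the MEF spots do, from 236 to 275.

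The neutral exchangers of this family were bright everywhere. Slc1a4, ASCT1, which exchanges serine, alanine and cysteine, gave 5691 in iPS-OSH, 6921 in iPS-J, 6665 in ESC and 6784 in MEF, a scaled span of 1.53-fold. Slc1a5, ASCT2, a glutamine exchanger, gave 8097 in iPS-OSH, 15797 in iPS-J, 5543 in ESC and 14313 in MEF. iPS-J was 2.46-fold above iPS-OSH and 3.0-fold above ESC, and no Slc1a5 difference from MEF reached 2-fold (-0.65, 0.65 and -0.94). The other Slc1a5 probe put iPS-J above MEF (1.16) and ESC below it (-1.01). Slc1a2, the glial glutamate carrier GLT-1, was faint by its brightest probe, at 75.6 on iPS-OSH and 82.2 on MEF, and not well above background at 11.6 on iPS-J and 22.7 on ESC. Another Slc1a2 probe was well above background on ESC (57.5) and MEF (38.1) and not on iPS-OSH (16.4) or iPS-J (8.52), with 1.03 on ESC against MEF, so the order of iPS-OSH and ESC depended on the probe.

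In the Slc36 family, Slc36a4 and Slc36a1 were highest on MEF. Slc36a4, PAT4, a proline and tryptophan carrier, gave 172 in iPS-OSH, 122 in iPS-J, 138 in ESC and 790.0 in MEF, lower by 4.06, 4.54 and 4.25-fold on iPS-OSH, iPS-J and ESC. With detection at the ERCC control percentile ESC gave a bound of -1.20 in place of -2.09. Its other probe gave -1.48 on iPS-OSH and bounds of -1.58 and -1.47 on iPS-J and ESC. Slc36a1, PAT1, which exports small amino acids from lysosomes, gave 640.0 in iPS-OSH, 765 in iPS-J, 842 in ESC and 2327 in MEF, with differences of -1.69, -1.10 and -1.03. The other Slc36a1 probe, at 238, 175, 551 and 291, differed by -0.11 and -0.23 on the iPS arrays and was higher on ESC by 1.35, so this call rests on 1 probe.

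Slc36a2, PAT2, the glycine and proline carrier of kidney, gave 60.1 on iPS-OSH and 160.0 on ESC and was not well above background on iPS-J (30.4) or MEF (25.1). It was at least 8.61-fold higher on ESC than MEF and 3.18-fold higher on ESC than iPS-OSH. No array exceeded its ERCC control percentile for Slc36a2, and with normexp the bound for ESC against MEF was 1.59 on the log2 scale in place of 3.11.

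In the Slc43 family, Slc43a2 was lowest and Slc43a3 highest on MEF. Slc43a2, the leucine carrier LAT4, gave 611 in iPS-OSH, 835 in iPS-J, 699 in ESC and 376 in MEF, with differences of 0.87, 1.66 and 1.33, the last 0.89 with unscaled deposited values. Slc43a1, LAT3, of the same function, gave 696 in iPS-OSH, 1000.1 in iPS-J, 961 in ESC and 1206 in MEF and stayed within 2-fold of MEF (-0.62, 0.24 and 0.11). Slc43a3, known as a purine base carrier, gave 1013 in iPS-OSH, 1048 in iPS-J, 1177 in ESC and 4090.3 in MEF, lower than MEF by 3.58, 2.75 and 2.57-fold on iPS-OSH, iPS-J and ESC.

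The Slc6 family held 16 detected genes, of which 6 were lower and 1 higher on iPS-OSH than MEF, 4 lower and 0 higher on iPS-J, and 2 lower and 1 higher on ESC. Of all genes, 25.1% were lower and 13.7% higher on iPS-OSH, 26.2% and 16.2% on iPS-J, and 16.7% and 22.6% on ESC, so the share lower on iPS-J was about that of all genes. Slc6a9, the glycine transporter GlyT1, gave 2668 in iPS-OSH, 3422 in iPS-J, 2174 in ESC and 22429 in MEF. It was lower on all 3 pluripotent arrays, by 7.45, 4.61 and 7.64-fold (log2 -2.90, -2.20 and -2.93). The overlapping second probe, with 51 shared bases, gave -2.97, -2.08 and -2.90.

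Slc6a17, a vesicular neutral amino acid carrier of neurons, gave 56.0 on iPS-OSH, 48.9 on ESC and 816 on MEF and was not well above background on iPS-J (8.40). MEF was 12.9-fold above iPS-OSH, 12.4-fold above ESC and at least 20.2-fold above iPS-J. With detection at the ERCC control percentile the Slc6a17 differences all became bounds, of -2.60, -2.56 and -1.24 on iPS-OSH, iPS-J and ESC. With normexp they were -2.63, -2.51 (a bound) and -2.30. Of the 6 detected neural markers, Tubb3 and Nes were higher on MEF than on every pluripotent array, and Sox1, Pax6 and Neurod1 were lower there. Their part in this was not tested.

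The osmolyte and creatine carriers were bright on every array. Slc6a6, the taurine transporter, gave 11401 in iPS-OSH, 8429 in iPS-J, 11133 in ESC and 15773 in MEF, a scaled span of 1.32-fold. Slc6a8, the creatine transporter, gave 14039.5 in iPS-OSH, 13938 in iPS-J, 7863 in ESC and 21089 in MEF, lowest on ESC at 1.99-fold below MEF. Neither passed 2-fold on any of the 3 arrays.

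Slc6a13, the GABA and taurine carrier GAT2 of liver and kidney, gave 207 in iPS-OSH, 125 in iPS-J, 447 in ESC and 136 in MEF. ESC was 4.45-fold above MEF, 2.59-fold above iPS-OSH and 3.40-fold above iPS-J. With detection at the ERCC control percentile the ESC difference from MEF became a bound of 1.18 on the log2 scale in place of 2.15. Its neighbour Slc6a12, whose probe lies 27.9 kb away and which carries betaine and GABA, was lower than MEF on iPS-J (-1.60) and differed by -0.91 on iPS-OSH and -0.17 on ESC.

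The remaining Slc6 genes with a wide span were dim. Slc6a4, the serotonin transporter, was detected on ESC (79.4) and MEF (66.7) and not on iPS-OSH (22.9) or iPS-J (15.5). Slc6a18, a kidney neutral carrier, was detected on MEF alone and by 1 of its 2 probes (75.4, the other 7.54), with 6.94, 9.14 and 8.18 on iPS-OSH, iPS-J and ESC. Slc6a20b, a relative of the imino acid carrier, gave 46.7 on iPS-OSH, 90.7 on ESC and 151 on MEF and was not well above background on iPS-J (10.4). With the median over its probes Slc6a18 gave 0 on all 3 arrays. None of these 3 genes exceeded the ERCC control percentile on any array.

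The 20 other detected genes spanned 1.33 to 3.66-fold over the 4 arrays. Against MEF, 1 was higher and 4 lower on iPS-OSH, 0 and 3 on iPS-J, and 0 and 1 (a bound) on ESC. Slc6a15, which carries branched-chain amino acids and proline, gave 613 in iPS-OSH, 339 in iPS-J, 231 in ESC and 341 in MEF, a difference of 1.02 on iPS-OSH. Slc7a15, a rodent light chain, gave 63.2 in iPS-OSH, 52.2 in iPS-J, 193 in ESC and 224 in MEF, with -1.65, -1.60 and 0.22 on iPS-OSH, iPS-J and ESC, below the ERCC control percentile on all 4 arrays. Slc38a10, a less studied Slc38 member, gave 1237 in iPS-OSH, 1226 in iPS-J, 1745 in ESC and 2979.7 in MEF, with -1.09, -0.77 and -0.34. Slc7a2, which carries basic amino acids in liver and macrophages, was detected on all arrays but ESC, at 100.2, 40.0 and 113 on iPS-OSH, iPS-J and MEF (33.9 on ESC), where it was lower than MEF by a bound of -1.31. All Slc7a2 signals were below the ERCC control percentile.

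Over all 42 genes detected on every array, 14 were highest on MEF, 14 on ESC, 11 on iPS-J and 3 on iPS-OSH, and 18 were lowest on iPS-OSH. Of all genes detected on every array, 34.0% were highest on MEF, 33.0% on ESC, 21.8% on iPS-J and 11.2% on iPS-OSH, and 24.8% were lowest on iPS-OSH.

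Between ESC and the iPS lines, most transporters lay within 2-fold, 37 of 53 on iPS-OSH and 36 of 51 on iPS-J. Of those further apart, more were higher on ESC than on the iPS arrays, as among all genes. Of 53 compared, 2 were higher and 14 lower on iPS-OSH, where 8.85% of all genes were higher and 27.6% lower. Of 51 compared, 3 were higher and 12 lower on iPS-J, against 5.50% and 25.9%. Quantile normalization turned this to 6 and 9 on iPS-OSH and 4 and 5 on iPS-J. The percentile over probes detected on all arrays gave 1 and 12 on iPS-J, and spike-in scaling gave 3 and 9 on iPS-OSH and 5 and 11 on iPS-J. Unscaled deposited values gave 3 and 10 on iPS-OSH. The median transporter difference from ESC was -0.32 on iPS-OSH and -0.09 on iPS-J, and 0.06 and 0.0004 with spike-in scaling. Besides Slc1a1, Slc6a13 and Slc38a8, the retinal glutamate carrier Slc1a7 was higher on ESC, at 239.6 in iPS-OSH, 249.6 in iPS-J, 659 in ESC and 809 in MEF, with -1.72 on iPS-OSH and -1.33 on iPS-J relative to ESC. Also higher on ESC were Slc6a4 (bounds of -2.05 and -1.41 on iPS-OSH and iPS-J), Slc6a20b (-1.22 and a bound of -1.60), Slc7a15 (-1.87 and -1.81) and Slc36a2 (-1.67 and a bound of -2.32). These dim genes exceeded the ERCC control percentile on no array. For Slc1a7, Slc6a4, Slc6a20b and Slc7a15 ESC lay within 2-fold of MEF (0.14, 0.68, -0.31 and 0.22), but not for Slc36a2. The level of the ERCC control spots was also alike on ESC and MEF.

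The iPS lines differed from each other in 8 of 51 transporters, 2 higher and 6 lower on iPS-OSH, where 8.91% of all genes were higher and 7.37% lower. The lower ones were Slc1a5 (-1.30), Slc38a4 (-1.07), Slc38a5 (-2.07), Slc7a1 (-1.0, at the threshold), the glial glutamate carrier Slc1a3 (-1.24) and the glutamine carrier Slc38a3 (-1.08). The higher ones were Slc1a6 (1.26) and, as a bound, Slc1a2 (1.08, and 0 with the median over its probes). The median difference was -0.31 for transporters and 0.0 for all genes. It was -0.04 with spike-in scaling, where 4 were higher and 2 lower, and with the deposited values unscaled 5 were higher and 1 lower. With the percentile over probes detected on all arrays 3 were higher and 5 lower.

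Different probes of a gene were a further limit. Of the 62 genes, 15 had several probes. For the differences from MEF counted as 2-fold, another detected probe of the gene pointed the same way in 4 of 5 cases on iPS-OSH, 5 of 6 on iPS-J and 6 of 8 on ESC. It also reached 2-fold that way in 2, 4 and 4 of these cases, and 2-fold the opposite way in 1, 0 and 1. The agreeing cases include the overlapping Slc6a9 probe on each array. Slc38a6, a less studied carrier, has 1 probe that the MEF scanner file names by a transcript and the other 3 files name Slc38a6. That brighter probe gave -0.67, -0.36 and -0.35 against MEF and the other 0.17, -0.15 and 0.67, all within 2-fold.

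**Figure D5:**
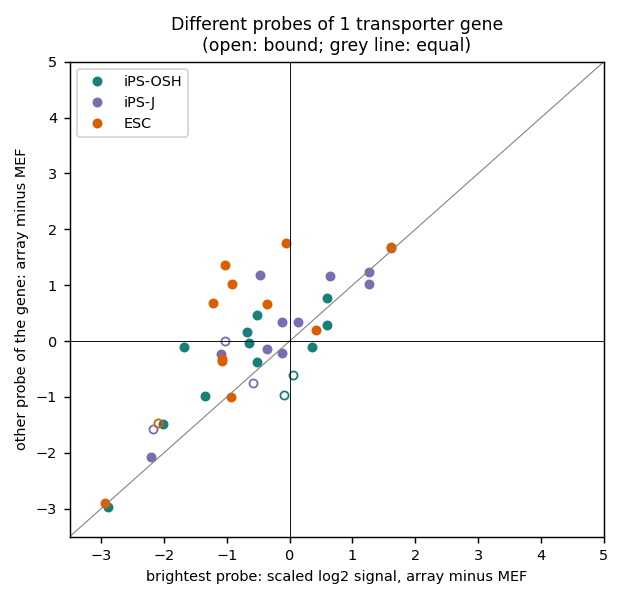
Scaled log2 difference from MEF of other detected probes of transporter genes (vertical) against that of the gene's brightest probe (horizontal), for iPS-OSH, iPS-J and ESC, with open points for bounds of the other probe and a grey line of equality. The Slc6a9 points, at the lower left, lie close to the line, while the other Slc36a1 probe on ESC stands at 1.35 where the brightest stands at -1.03. The pair of 1 gene is not drawn.

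Some neighbouring transporter genes went apart. The brightest probes of Slc36a1 and Slc36a2 on chromosome 11 lie 75.2 kb apart. By these, against MEF, Slc36a1 was lower and Slc36a2, by bounds, higher on iPS-OSH and ESC. The other Slc36a1 probe gave -0.11 on iPS-OSH and 1.35 on ESC, the direction of Slc36a2 on ESC. Slc36a2 exceeded the ERCC control percentile on no array. Those of Slc43a1 and Slc43a3 on chromosome 2 lie 94.4 kb apart, and of the pair Slc43a3 passed 2-fold. Those of Slc7a6 and Slc7a6os on chromosome 8 lie 2.29 kb apart, with -0.85, 0.03 and -0.62 for Slc7a6 and 0.48, 0.91 and 0.56 for Slc7a6os.

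Promoters were read from RefSeq (GRCm38.p6, 250 bases before to 50 after the start) for 44 of the 62 genes, 64 promoters in all. The amino acid response element core, TGATGNAA on either strand, which ATF4 binds when amino acids are short, was in 4 of these 64 and in 3.97% of all 32851 promoters. It occurred in those of Slc1a4, Slc7a11 and Slc7a7. Slc7a7 has 2 matching sites, both in 1 promoter and 1 of them also in an overlapping promoter, and the site farther upstream is shown. Slc7a11 held it on both strands within a short stretch, and the second overlaps an octamer, ATGCAAAT, the letters bound by Oct4. The octamer was in 2 of the 64 and 1.74% of all promoters. The windows are shown because Slc7a7 and Slc7a11 stood on opposite sides of MEF, with the match in capitals. They lie at chr3:50443661-50443690 and chr3:50443642-50443671 (Slc7a11, minus strand) and chr14:54418067-54418096 (Slc7a7, minus strand), all GRCm38.p6.
Slc7a11 first: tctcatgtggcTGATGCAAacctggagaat
Slc7a11 second: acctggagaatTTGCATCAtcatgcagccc
Slc7a7: ccgcttgggctTGATGAAAggttcactggg

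The E-box CACGTG was in 9 of the 64 and in 7.15% of all promoters, among them that of Slc38a5, at chrX:8271339-8271368 on the plus strand. The antioxidant response element TGACNNNGC was in 11 of the 64 and in 12.4% of all, and not in the Slc7a11 window. A match says only that these letters are present.
Slc38a5: gcagacaggtgaCACGTGtccctgttaaga

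The genes of the amino acid response, most of them targets of ATF4 such as tRNA synthetases, were compared as a list of 29 measured genes. Against MEF, 15 were lower on iPS-OSH, 4 on iPS-J and 11 on ESC, and 0 were higher on any, where 25.1%, 26.2% and 16.7% of all genes were lower. The medians were -1.03, -0.08 and -0.74. Atf5, a factor of this response, gave 28879 in iPS-OSH, 11976 in iPS-J, 10008 in ESC and 203998 in MEF, and Vldlr, a lipoprotein receptor, 1200.2 in iPS-OSH, 3866 in iPS-J, 1283 in ESC and 12106 in MEF. Fgf21, a hormone of the response, was detected on iPS-J (157), ESC (52.2) and MEF (419) and not on iPS-OSH (6.26). Stc2, a secreted glycoprotein, gave 367 in iPS-OSH, 2452 in iPS-J, 779.6 in ESC and 1861 in MEF, highest on iPS-J after scaling. iPS-J stood above ESC in 12 of 29 genes and below in 0, where 5.50% of all genes were higher. iPS-OSH stood below iPS-J in 10 and above in 1, where 7.37% of all genes were lower. Of transporters known to respond to ATF4, Slc1a5 and Slc7a1 were lower on iPS-OSH than iPS-J (-1.30 and -1.0). With unscaled deposited values these 2 gave -0.96 and -0.66. Slc7a5, Slc3a2 and Slc38a2 gave -0.88, -0.66 and 0.14. Slc7a11, whose promoter holds the response element core, was not well above background on either iPS array. A link between these transporters and the list was not tested.

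Of 16 genes of cystine and glutathione metabolism, 2 were higher and 0 lower than MEF on iPS-OSH, 3 and 2 on iPS-J, and 2 and 4 on ESC. Over all genes 13.7% were higher and 25.1% lower on iPS-OSH, with 16.2% and 26.2% on iPS-J and 22.6% and 16.7% on ESC, so higher genes were about as frequent as overall on both iPS arrays. Cbs, which makes cystathionine from homocysteine, gave 3688 in iPS-OSH, 5173 in iPS-J, 3707 in ESC and 1016 in MEF and was higher by 2.03, 2.86 and 2.30. Cth, which releases cysteine from cystathionine, gave 4528 in iPS-OSH, 16270.1 in iPS-J, 2671 in ESC and 6644 in MEF, highest on iPS-J. Cd44, a surface receptor with a variant form that stabilises xCT, gave 27146 in iPS-OSH, 2212 in iPS-J, 1353 in ESC and 44324 in MEF, with iPS-OSH near MEF (-0.53) and iPS-J and ESC far below (-3.82 and -4.60). The summed signal of the fibroblast markers had the same order on these arrays, and its part in this was not tested. Dcn broke that order, being higher on iPS-OSH than MEF (1.34). So did Col3a1 and Pdgfrb, lower on iPS-J than ESC (-0.47 and -0.84), while the other markers kept it. Ggt1, which splits extracellular glutathione, was not well above background on MEF (34.1) and gave 92.3, 231 and 290.1 on iPS-OSH, iPS-J and ESC.

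Of 23 measured genes of amino acid sensing by mTORC1, 3 were higher and 5 lower than MEF on iPS-OSH, 4 and 4 on iPS-J, and 2 and 4 on ESC. Of all genes, 13.7% were higher and 25.1% lower on iPS-OSH, 16.2% and 26.2% on iPS-J, and 22.6% and 16.7% on ESC. On iPS-OSH both counts were near those shares. Rragb, a Rag GTPase, was not well above background on MEF (14.1) and gave 472, 273 and 229, at least 4.71, 4.26 and 3.92 higher on the log2 scale. Rragc, its partner GTPase, was lower than MEF on all 3 arrays (-1.07, -1.27 and -1.99), as was the kinase gene Map4k3 (-1.20, -1.65 and -1.18). Rragd gave 1.30 on iPS-OSH and -0.81 and -0.06 on iPS-J and ESC.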

How the data were processed

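Total RNA of 4 cultures was labelled with Cy3 and hybridized to 1-colour Agilent arrays, 1 per group, per the labels. The scanner files as deposited give an intensity for 62976 spots, background-subtracted within each array by Feature Extraction 10.5.1.1, per the file headers. The authors' value table holds the same intensity, rounded (deviations of at most 0.497%).

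The log2 signal was scaled to each array's 75th percentile over 59305 non-control spots, without outlier spots. Genes took their brightest probe, and probe coordinates are mm9. The MEF file names 1732 spots differently from the other 3 files, among them 1 probe of these genes, and the names of the 3 were used. Values on every array are given for 35 genes: those spanning 4-fold while detected, the brightest of each family and 22 well-known carriers. Slc1a3, Slc1a7, Slc6a12, Slc6a15, Slc7a2, Slc7a15, Slc38a3, Slc38a6, Slc38a10 and Slc7a6os were named after their values were seen. From each of 5 lists up to 4 genes with the widest span are named. The levels of 1 gene are not reported here. Genes and lists were chosen with earlier results of these data known. Of 9 alternatives, 1 (gene names of the MEF file) was added after seeing the data. The arrays' number limits the precision. Python 3.11.15, numpy 2.4.6, pandas 2.3.3 and, for normexp and quantile normalization, limma 3.58.1 in R 4.3.3 were used.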

Additional observations from a re-analysis of the deposited data

How the results depend on the processing

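Of 108 counts of transporters recomputed under 9 alternatives, 77 stayed within 1.5 times of the reported count and 31 did not. With normexp background correction, 10 were lower on iPS-OSH than MEF and 5 on iPS-J, 0 were higher and 9 lower on iPS-OSH than ESC, 5 were lower on iPS-J than ESC, and 1 was higher on iPS-OSH than iPS-J. With quantile normalization, 6 were higher and 9 lower on iPS-OSH than ESC, 5 were lower on iPS-J than ESC, and 1 was higher on iPS-OSH than iPS-J. With the percentile over probes detected on all arrays, 7 were lower on ESC than MEF, and 1 was higher on each of iPS-OSH and iPS-J than ESC. With spike-in scaling, 9 were lower on iPS-OSH than ESC, 5 were higher on iPS-J than ESC, and 4 were higher and 2 lower on iPS-OSH than iPS-J. With detection required on both arrays, which leaves out bounds, 3, 4 and 6 were higher on iPS-OSH, iPS-J and ESC than MEF, and 1 was higher on iPS-OSH than each of ESC and iPS-J. With detection above the ERCC controls, 4 were higher on iPS-OSH than MEF, 1 was higher and 8 lower on iPS-OSH than ESC, 5 were lower on iPS-J than ESC, and 1 was higher on iPS-OSH than iPS-J. With the median over a gene's probes, 1 was higher on iPS-OSH than iPS-J. With the unscaled value table, 21 were lower on iPS-J than MEF, and 5 were higher and 1 lower on iPS-OSH than iPS-J. The names of the MEF file moved no count beyond 1.5 times.

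Among named genes, 77 differences reached 2-fold. Of those, 59 did so in the same direction with normexp, 66 with quantile normalization, 69 with the percentile over detected probes and with the median over probes, 70 with the value table, 72 with spike-in scaling and 77 with the names of the MEF file. With detection on both arrays it was 53 of 53 with a value, and above the ERCC controls 55 of 58. The single reversal was Slc36a1 on ESC against MEF, which turned to 0.16 with the median over its probes, whose second probe pointed the other way. No paired analysis was possible because each group holds 1 array. Dim signals limit these data, since 19 of the 62 genes exceeded the ERCC controls on no array.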

Other observations

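Serine and one-carbon genes and carriers outside the 7 families were compared with MEF as well, where 13.7% of all genes were higher and 25.1% lower on iPS-OSH, 16.2% and 26.2% on iPS-J, and 22.6% and 16.7% on ESC. Of 19 serine and one-carbon genes, 6 were higher and 4 lower on iPS-OSH, 7 and 1 on iPS-J, and 6 and 1 on ESC. Tdh, threonine dehydrogenase, which turns threonine into glycine and a source of acetyl-CoA, gave 152329 in iPS-OSH, 109725 in iPS-J, 140050.0 in ESC and 479 in MEF, a log2 difference of 8.49, 8.35 and 8.62. Gldc, of the glycine cleavage system, gave 5162 in iPS-OSH, 15535 in iPS-J, 23086 in ESC and 514 in MEF, and its partner Amt 366 in iPS-OSH, 269 in iPS-J, 293 in ESC and 63.6 in MEF. Shmt1, which moves a carbon between serine and glycine, gave 4268 in iPS-OSH, 2550.2 in iPS-J, 5486 in ESC and 400.4 in MEF. All 4 were higher on each pluripotent array than on MEF, and Slc6a9, the glycine transporter, was lower there.

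Of 20 genes of other amino acid carriers, 3 were higher and 4 lower than MEF on iPS-OSH (19 compared), 4 and 3 on iPS-J (19) and 5 and 4 on ESC (18). On iPS-OSH both counts were near the shares of all genes. Slc15a2, a peptide carrier, gave 647 on ESC and 64.7 on MEF and was not well above background on iPS-OSH (19.4) or iPS-J (8.46), so it joined Slc1a1 among the carriers highest on ESC. Slc25a13, the mitochondrial aspartate and glutamate carrier, gave 16236 in iPS-OSH, 16376 in iPS-J, 13796 in ESC and 4392 in MEF, higher than MEF by 2.06, 2.41 and 2.08. Slc15a3, a lysosomal peptide carrier, gave 232 on iPS-OSH, 63.3 on ESC and 382 on MEF and was not well above background on iPS-J (27.1). Slc15a1 was detected on iPS-J alone (59.4).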
